A study of Mus musculus with 300 samples.

Results

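Spermatogonia of intermediate ID4-EGFP brightness were set against the spermatogonia at the bright and dim ends of the same sort. The intermediate cells are those of the quartiles Q2 and Q3, chosen by the brightness label alone and by no measured transcript. They number 149 of 300 cells (78 in Q2 and 71 in Q3), against 151 cells at the extremes (79 in Q1, the brightest, and 72 in Q4, the dimmest). All cells came from testes of untreated adult mice, whose exact age and strain are not given in the sources used here, and all carried the ID4-EGFP reporter, a green fluorescent protein that reports on the Id4 locus. Cells from several pooled mice were sorted for strong CD9 surface signal and for EGFP, captured one by one on Fluidigm C1 chips, imaged, and made into polyA cDNA. The 4 preparations held 32, 41, 37 and 39 middle cells, against 35, 41, 34 and 41 cells of the extremes, and each of the 16 combinations of preparation and quartile held 15 to 22 cells.

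Spermatogonial stem cells maintain sperm production by self-renewal, and their progeny pass through transit-amplifying progenitor states before retinoic acid commits them to differentiation and, later, meiosis. ID4 is an inhibitor of DNA-binding transcription factors, and its level is commonly used to grade these states, with bright cells enriched for stem cell activity and dim cells for progenitors. A cell of intermediate brightness can therefore carry intermediate levels of the genes that follow this axis, and can also hold transcripts that are higher or lower than at both ends. The comparison asks for the second pattern: for each gene the mean of the Q1 and Q4 means was subtracted from the mean of the Q2 and Q3 means within each preparation. A gene that climbs evenly with brightness has a difference of 0 in this comparison.

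The table gave FPKM per cell, a level that accounts for transcript length and library size, and the 10411 genes that reached 1 FPKM in 30 cells or more were tested on log2(FPKM + 1), on which fold changes of low genes are understated. The cells carried the label's germ cell markers: Ddx4, a germ cell RNA helicase, was at 1 FPKM or more in 99.3% of middle cells and 100% of cells at the extremes, and Uchl1, a ubiquitin hydrolase of spermatogonia, in 100% of both. Middle cells had 5456 ± 862 genes at 1 FPKM or more per cell and cells of the extremes 5521 ± 733 (mean ± SD over 4 preparations). An exact permutation test of the quartiles within preparations gave p = 0.565 (two-sided; 1296 relabelings, smallest possible p 0.00154). Summed FPKM per cell averaged 475127 in the middle and 485642 at the extremes, with p = 0.218 by the same permutation test. Cells that matched a marker list of another testis cell type, with at least 50% of its genes at 1 FPKM or more, numbered 15 of 300, with 4 in Q2 and 4 in Q3, against 2 in Q1 and 5 in Q4.

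No gene passed an adjusted p of 0.05 in either direction (limma, Benjamini-Hochberg over 10411 genes; 0 genes higher, 0.00%, and 0 lower, 0.00%). At an unadjusted p under 0.05 there were 208 genes higher in the middle (2.00% of those tested) and 357 lower (3.43%). The lean to the lower side depended on scaling: when each mean was centred on its median gene, the counts were 285 higher and 280 lower. Over all genes the difference was below 0 in 5750 (55.2%) and above 0 in 4661 (44.8%), with a median of −0.03. The direction was the same in all 4 preparations for 548 genes higher in the middle (5.26%) and for 822 lower (7.90%). The precision bears on how the count of 0 reads. The median standard error of a difference was 0.234 and the median 95% interval reached 0.481 to either side on the log2 scale. That reach belongs to 1 unadjusted test, and the adjustment over 10411 genes asks for more. Mrps18c, at −0.82 with a standard error of 0.14, had an adjusted p of 0.0688 in limma. The count of 0 therefore does not exclude differences larger than 0.481. In the same fit the 2 ends themselves differed in 283 genes higher in Q1 than in Q4 (2.72%) and 55 genes lower (0.528%).

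**Figure D1:**
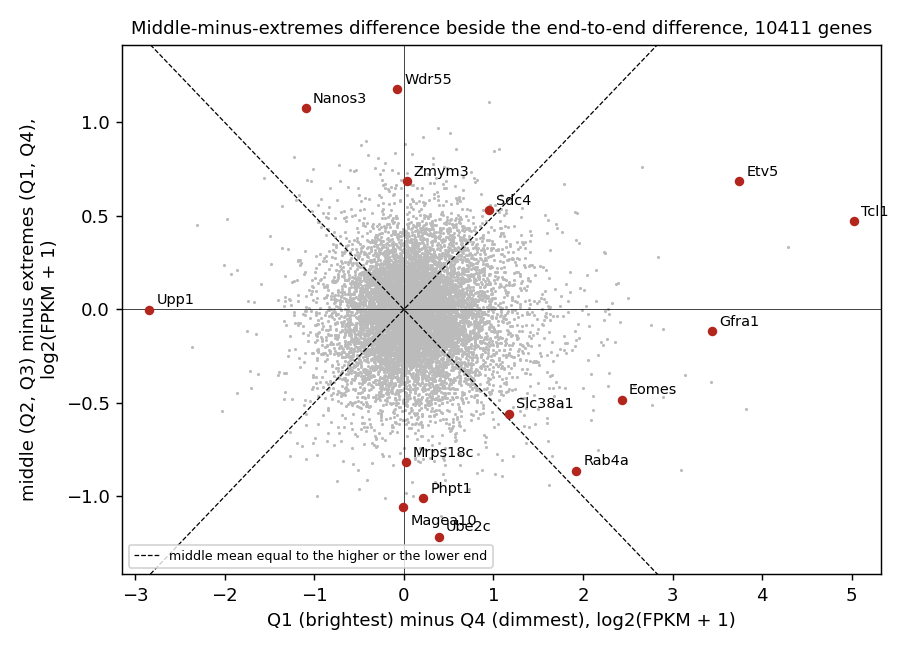
Each grey point is 1 of 10411 genes; the horizontal axis is the Q1 minus Q4 difference and the vertical axis the middle minus extremes difference, both in log2(FPKM + 1). Above and below the dashed lines the mean of the middle quartiles lies beyond both ends (2320 genes above, 2966 below); named genes are in red, with Gfra1, Tcl1 and Upp1 far out along the horizontal axis and Mrps18c, Phpt1, Magea10 and Wdr55 near 0 on it.

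A difference from 0 can also arise where 1 extreme alone stands apart, so a stricter test asked that both Q2 and Q3 lie beyond both Q1 and Q4 (an intersection-union test in the same fit). No gene passed it after adjustment (0.00%), and 9 did at an unadjusted p under 0.05, 1 as a peak in the middle (0.00961%) and 8 as a dip (0.0768%). By the order of the 4 means alone, without a test, 1181 genes had both middle means above both ends (11.3%), 1664 had both below (16%), 1134 climbed at each step from Q4 to Q1, and 506 declined at each step. The peak order was present in every preparation in 3 genes (0.0288% of those tested), Fam188b, Tmem185b and Zmym3. The dip order was present in every preparation in 11 genes (0.106%), Arih1, Cdk1, Ext2, Mrpl35, Mrps18c, Naa16, Phpt1, Rdm1, Srsf2, Syce1 and Yipf5. Neither count was tested. Those of these 14 that are named by no other rule were singled out after their values were seen.

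Mrps18c, a protein of the small subunit of the mitochondrial ribosome (chr5:100798627-100804471, plus strand, GRCm38), had the smallest p of all genes. Its mean log2(FPKM + 1) was 7.42, 7.12, 7.30 and 8.15 in the middle cells of the 4 preparations, against 8.16, 8.13, 8.36 and 8.61 in the extremes. The middle was lower in each preparation, and the 8 middle means, at 6.88 to 8.31, overlapped the 8 means of the extremes, at 8.11 to 8.74, only at their edges. The difference was −0.82 ± 0.14 (SE; 95% interval −1.11 to −0.52), with an adjusted p of 0.0688 in limma. From dim to bright its mean FPKM was 512, 365, 348 and 472, and the gene was at 1 FPKM or more in 91.3% of middle cells and 98.6% of cells at the extremes. Its unadjusted intersection-union p was 0.00057, the smallest among the genes tested. The adjusted p was 0.0243 with a pseudocount of 0.1 and 0.0488 with the stricter expression filter, and ran up to 1.00 over the 15 alternatives. Exons of the predicted gene Gm43511 overlap it on the same strand, so reads of the pair cannot be told apart.

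Phpt1, a phosphohistidine phosphatase (chr2:25573430-25575224, minus strand), was lower in the middle in each preparation, at 2.82, 4.91, 5.14 and 5.89 against 4.27, 5.98, 6.35 and 6.21 in the extremes. The preparations differed from each other by more than the middle from the extremes, and the groups overlapped; within preparations the difference was −1.01 ± 0.23 (SE), with an adjusted p of 0.582. It was at 1 FPKM or more in 70.7% of middle cells and 86% of cells at the extremes. Exons of Mamdc4 overlap it on the same strand. Magea10, a MAGE family gene of the X chromosome whose relatives are largely restricted to germ cells and tumours, showed the same order: 0.95, 1.99, 1.33 and 1.85 in the middle, against 1.92, 3.13, 1.96 and 3.34 in the extremes. It was at 1 FPKM or more in 26.1% of middle cells and 43.7% of cells at the extremes (difference −1.06 ± 0.28, adjusted p 0.725). Boll, a germline RNA-binding protein of the DAZ family, had a difference of −0.92 ± 0.29, and Tubb4b, a beta-tubulin, one of −0.62 ± 0.18, both with adjusted p 0.725.

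Wdr55, a nucleolar WD-repeat protein (chr18:36760220-36763810, plus strand), was the 1 gene with an unadjusted intersection-union p under 0.05 as a peak (p = 0.0157). Its mean log2(FPKM + 1) was 4.02, 5.48, 4.38 and 5.12 in the middle, against 2.15, 3.95, 4.19 and 4.01 in the extremes. The middle was higher in each preparation, by little in preparation 3, and the difference was 1.18 ± 0.31 with an adjusted p of 0.725. It was at 1 FPKM or more in 77.9% of middle cells, against 61.1% of cells at the extremes. Its exons overlap those of Dnd1, a germ cell RNA-binding protein, on the opposite strand. The library kit does not mark strand, so reads of the pair cannot be told apart. Zmym3, a zinc finger protein of histone deacetylase complexes, was at 6.13, 5.82, 5.35 and 5.90 in the middle, against 5.61, 5.05, 4.41 and 5.39 in the extremes (difference 0.69 ± 0.23, adjusted p 0.725). Ctsa, a lysosomal carboxypeptidase, and Tmem222, a membrane protein, were 0.84 ± 0.29 and 0.88 ± 0.29 higher in the middle, and both had their largest gap in preparation 1.

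**Figure D2:**
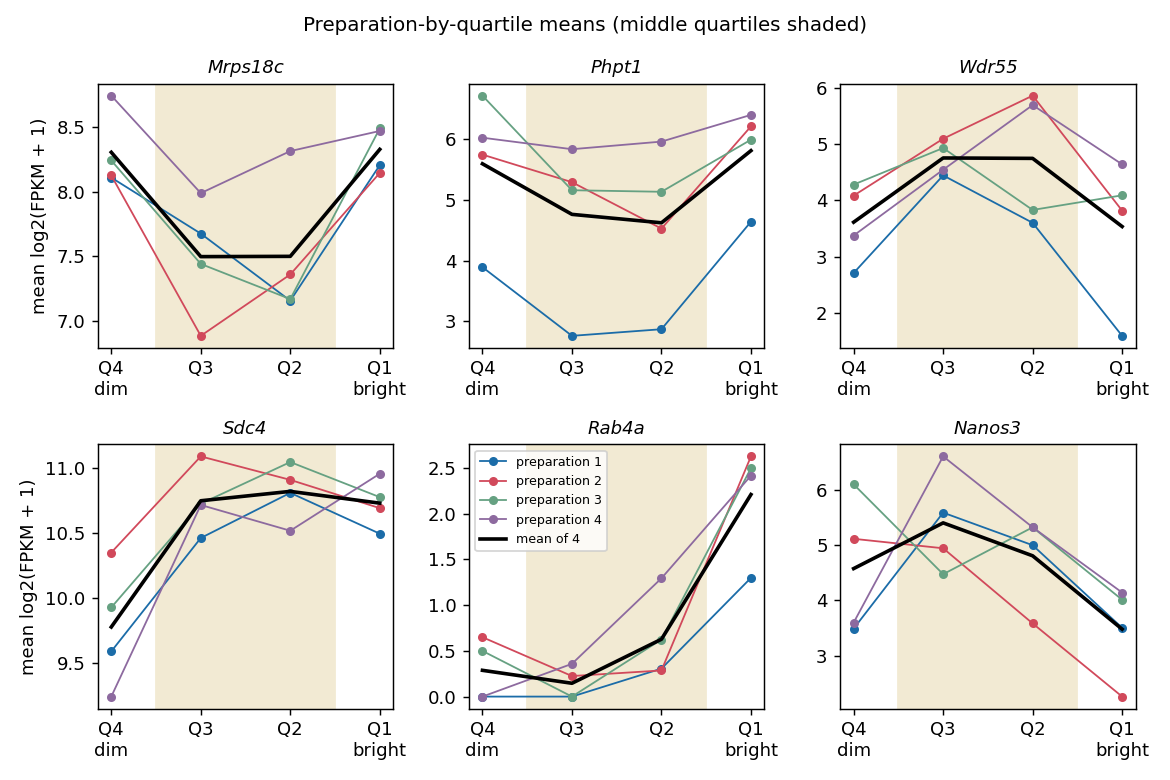
Mean log2(FPKM + 1) in each of the 16 combinations of preparation and quartile, from the dimmest (Q4) to the brightest (Q1), for 6 genes; a coloured line is 1 preparation, the black line is the mean of 4, and Q3 and Q2 are shaded. Mrps18c and Phpt1 dip and Wdr55 peaks in the shaded part, Sdc4 is lowest in Q4 and Rab4a highest in Q1.

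In several genes with small p-values most of the range lay towards 1 end. Sdc4, the heparan sulfate proteoglycan syndecan-4 (chr2:164424247-164443887, minus strand), was at 10.63, 11, 10.88 and 10.62 in the middle, against 10.04, 10.52, 10.35 and 10.10 in the extremes, higher in each preparation. The 8 middle means, at 10.46 to 11.09, overlapped the 8 means of the extremes, at 9.24 to 10.96. The difference was 0.53 ± 0.11 with an adjusted p of 0.166. From dim to bright the quartile means were 9.78, 10.75, 10.82 and 10.73, so Q4 alone was low. Both middle means lay above both ends, but little above Q1, and the intersection-union p was 0.902. An adjusted p of 0.00582 was reached in 1 of 15 alternatives, the fit on the 4 differences per preparation. Etv5, an ETS transcription factor induced by GDNF and required for stem cell maintenance, had quartile means of 1.35, 3.01, 4.80 and 5.09, and Id3, a relative of Id4, had 0.96, 2.37, 2.67 and 2.75. Their differences were 0.69 ± 0.26 and 0.67 ± 0.31, with adjusted p of 0.780 and 0.907. In both, Q2 differed little from Q1, and most of the range lay among the dimmer quartiles.

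Other genes were highest in Q1 and lower in the middle than at the extremes. Rab4a, a GTPase of endosome recycling, was at 0.15, 0.26, 0.31 and 0.83 in the middle, against 0.65, 1.64, 1.50 and 1.21 in the extremes (difference −0.86 ± 0.18, adjusted p 0.275). Its quartile means from dim to bright were 0.29, 0.15, 0.63 and 2.21, and it was at 1 FPKM or more in 43% of Q1 cells. Slc38a1, a glutamine transporter, had quartile means of 0.32, 0.32, 0.39 and 1.50, and Hs6st2, a heparan sulfate sulfotransferase, 0.32, 0.09, 0.22 and 0.98. Eomes, a T-box transcription factor of a stem cell subset, had 0.19, 0.36, 1.49 and 2.62, and Lhx1, a GDNF-responsive homeobox gene, 0.14, 0.33, 0.54 and 1.55. Eomes was −0.48 ± 0.23 and Lhx1 −0.41 ± 0.16 in the middle relative to the extremes (adjusted p 0.907 and 0.819). Eomes was thus also higher in Q2 than in the dimmer quartiles. A row named Id4e climbed at each step (0.78, 1.07, 1.88 and 3.88), the most between Q2 and Q1. It matches no gene symbol, and were it to hold Id4 or reporter transcripts, its course would be set by the brightness sort itself.

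Among the other genes with small p-values in the higher direction, Enc1, an actin-binding Kelch protein, was 0.83 ± 0.21 higher in the middle, Ldha, the lactate dehydrogenase A subunit, 0.78 ± 0.24, and Bax, a pro-apoptotic BCL2 family member, 0.81 ± 0.25. Ldha was at 2.28, 2.03, 1.59 and 2.53 in the middle, against 0.84, 1.14, 1.33 and 2.01 in the extremes, higher in each preparation. Gyltl1b, a glycosyltransferase of dystroglycan, was 1.11 ± 0.33 higher and was at 1 FPKM or more in 94.2% of middle cells, against 79.1% at the extremes. Tmem185b, Crebl2, Ttc38, Zscan21, Fam188b, Tmtc4 and Ccdc6 had differences between 0.40 and 0.90. On the lower side, Znrd1, a subunit of RNA polymerase I, was −1.11 ± 0.29, Ypel5, a small zinc-binding protein, −0.57 ± 0.15, Ext2, a heparan sulfate polymerase subunit, −0.61 ± 0.16, and Cryab, a small heat shock protein whose exons overlap Hspb2 on the opposite strand, −0.47 ± 0.13. All the genes of this paragraph had adjusted p of 0.725, and none had an unadjusted intersection-union p under 0.05. In Enc1 Q3 stood apart, with quartile means of 6.33, 7.71, 6.69 and 6.42 from dim to bright (intersection-union p 0.358). Ypel5 had 7.67, 7.12, 7.66 and 8.26, with Q2 close to Q4 (intersection-union p 0.973). Cryab had 0.92, 0.30, 0.08 and 0.40, with Q4 the highest (intersection-union p 0.601).

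Genes of the G2 phase and mitosis, which drive chromosome condensation, spindle assembly and cyclin destruction, had the lowest median of the 30 gene lists described. All 58 were tested: 48 had a difference below 0 (55.2% over all genes) and 10 above (44.8%). At an unadjusted p under 0.05, 9 were lower (3.43% over all genes) and 0 higher (2.00%), and 0 passed adjustment. The median was −0.30, against −0.03 over all genes. In the 4 preparations the list's median was −0.91, 0.01, 0.03 and −0.37, and 52, 29, 27 and 46 of its 58 genes were below 0. Preparation 1 set much of the value: without it the median was −0.09, with 36 of 58 below 0. In that setting 5 were lower at an unadjusted p under 0.05, against 280 of 10411 over all genes. A middle cell had on average 41.2 ± 6.0 of the 58 genes at 1 FPKM or more and a cell of the extremes 43.7 ± 3.9 (SD over 4 preparations). In preparation 1 these counts were 32.8 and 40.4. Genes per cell moved the same way there, at 4240 in the middle and 4487 in the extremes. With genes per cell as a covariate, 43 of 58 were below 0 and the median was −0.22; with median centring the values were 48 and −0.27.

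The 3 members with the smallest p were lower in the middle in each preparation. Aurka, the mitotic kinase Aurora A (chr2:172356190-172370535), was at 2.06, 3.10, 2.27 and 3.77 in the middle, against 3.45, 3.84, 2.71 and 5.18 in the extremes (difference −0.999 ± 0.257), and at 1 FPKM or more in 46.8% of middle cells, against 64.5%. Ube2c, the ubiquitin-conjugating enzyme of the anaphase-promoting complex (chr2:164769898-164778822), was at 2.55, 4.13, 3.94 and 5.18 in the middle, against 5.03, 5.27, 4.56 and 5.79 in the extremes (difference −1.22 ± 0.34). Ccna2, cyclin A2 (chr3:36564865-36572150), was at 3.51, 3.37, 3.10 and 3.79 in the middle, against 5.09, 3.83, 3.72 and 5.11 in the extremes (difference −0.998 ± 0.288). The groups overlapped in all 3, and each had an adjusted p of 0.725. Exons of Tnnc2 overlap Ube2c, and exons of Exosc9 overlap Ccna2, on the opposite strand. Cdk1, the cyclin-dependent kinase that drives entry into mitosis, had both middle means below both ends in each preparation. It was at 2.77, 3.35, 2.85 and 3.55 in the middle, against 3.98, 4.04, 3.39 and 4.31 in the extremes (difference −0.80 ± 0.24, adjusted p 0.725). Mki67, a marker of cycling cells, was at 1.39, 2.39, 2.69 and 2.78 in the middle, against 3.46, 2.55, 2.15 and 3.66 in the extremes, higher in the middle in preparation 3 and lower in the others (−0.64 ± 0.33, adjusted p 0.907).

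**Figure D3:**
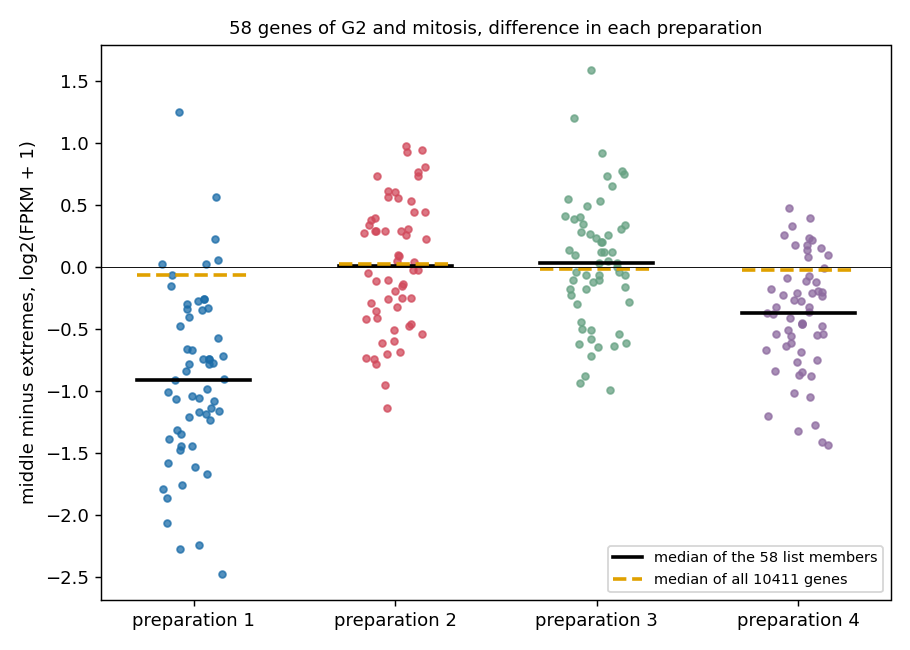
Middle minus extremes difference in log2(FPKM + 1) for each of 58 genes of G2 and mitosis, 1 column of points per preparation, with the list's median (black) and the median of all 10411 genes (dashed). The list's median is −0.91 in preparation 1 and −0.37 in preparation 4, and close to 0 in preparations 2 and 3.

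Late cell cycle genes are known to share promoter elements: the cell cycle homology region, read here as TTTGAA, and the CCAAT box bound by NF-Y. The windows of Aurka, Ube2c and Cdk1 are shown because they are 3 of the 4 genes of the list with the smallest p; the other, Ccna2, is named only. They run from 250 bases before to 50 after the start site (RefSeq, GRCm38.p6; chr2:172370521-172370820 minus, chr2:164769679-164769978 plus and chr10:69352863-69353162 minus), with capitals for TTTGAA or CCAAT on either strand.
Aurka: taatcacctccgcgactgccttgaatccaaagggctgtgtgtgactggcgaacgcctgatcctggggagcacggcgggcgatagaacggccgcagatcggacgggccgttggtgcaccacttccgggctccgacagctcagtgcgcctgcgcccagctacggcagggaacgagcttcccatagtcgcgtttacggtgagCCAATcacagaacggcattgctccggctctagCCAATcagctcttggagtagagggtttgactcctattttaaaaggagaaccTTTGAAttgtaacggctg
Ube2c: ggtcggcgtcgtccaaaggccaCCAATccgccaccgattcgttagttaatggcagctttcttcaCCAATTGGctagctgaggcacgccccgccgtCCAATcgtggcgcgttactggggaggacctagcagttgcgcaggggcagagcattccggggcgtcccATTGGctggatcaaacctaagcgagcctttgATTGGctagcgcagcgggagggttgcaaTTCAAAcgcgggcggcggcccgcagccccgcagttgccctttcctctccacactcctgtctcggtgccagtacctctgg
Cdk1: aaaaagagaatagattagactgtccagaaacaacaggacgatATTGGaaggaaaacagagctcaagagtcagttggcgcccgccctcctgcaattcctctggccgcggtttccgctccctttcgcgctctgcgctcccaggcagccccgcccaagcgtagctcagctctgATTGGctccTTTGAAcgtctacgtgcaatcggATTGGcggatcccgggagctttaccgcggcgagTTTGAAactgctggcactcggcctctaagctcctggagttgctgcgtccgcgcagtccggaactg
Aurka's window holds 1 TTTGAA and 2 CCAAT, Ube2c's 1 and 6 (2 of the CCAAT matches overlap each other on opposite strands), and Cdk1's 2 and 3. Over all 32851 windows of this length, 17.9% hold TTTGAA and 37.4% hold CCAAT on either strand. Of the 58 listed genes, 48 had at least 1 window, 51 windows in all, and of these genes 31 hold TTTGAA and 35 hold CCAAT. These counts are by gene, whereas the shares above are by window. These are matches of letters, not measured binding.

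For earlier cell cycle steps, of 49 genes of DNA replication and S phase, 33 were below 0 (55.2% over all genes) and 16 above, with a median of −0.06. Of these genes 3 were lower (3.43% over all genes) and 1 higher (2.00%) at an unadjusted p under 0.05. The median was −0.15, −0.15, 0.12 and −0.24 in the 4 preparations. Clspn, the checkpoint protein claspin, was −0.64 ± 0.26 and Rpa2, a subunit of the single-strand DNA binding complex, −0.39 ± 0.16. Chaf1b, a histone chaperone subunit that works at replication forks, was 0.73 ± 0.29. Of 24 genes of G1 control 19 were tested; 12 were above 0, with a median of 0.10, and none had an unadjusted p under 0.05 in either direction. Ccnd2, a D-type cyclin, was at 5.11, 5.50, 5.44 and 5.69 in the middle, against 3.99, 5.90, 4.80 and 5.30 in the extremes (0.43 ± 0.23, adjusted p 0.907).

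Stem cell and progenitor markers were mostly graded along brightness. Gfra1, the GDNF co-receptor, had quartile means of 1.22, 2.34, 3.31 and 4.66 from dim to bright, and Upp1, a uridine phosphorylase higher in dim cells, 5.73, 4.78, 3.83 and 2.89. Their middle minus extremes differences were −0.12 (95% interval −0.69 to 0.46) and −0.00 (−0.60 to 0.60). These intervals do not show that the difference was 0. Ret, the GDNF receptor kinase, was 0.11 (−0.42 to 0.63) and Zbtb16, the stem and progenitor factor PLZF, 0.18 (−0.32 to 0.67). Kit, the receptor of differentiating spermatogonia, was at 0.87, 0.97, 1.11 and 1.88 in the middle, against 1.22, 0.91, 1.59 and 2.89 in the extremes, lower in 3 of 4 preparations (−0.44 ± 0.31, adjusted p 0.929). Of the 26 marker genes 18 were above 0 (44.8% over all genes) and 8 below; 3 were higher (2.00%) at an unadjusted p under 0.05, namely Nanos3, Etv5 and Id3, and 0 passed adjustment.

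Nanos3, an RNA-binding translational regulator of undifferentiated germ cells (chr8:84173731-84185217, minus strand), had the largest difference of the markers. It was at 5.29, 4.26, 4.90 and 5.96 in the middle, against 3.50, 3.69, 5.05 and 3.87 in the extremes, higher in 3 of 4 preparations, with overlapping groups. The difference was 1.08 ± 0.36 (95% interval 0.33 to 1.82; unadjusted p 0.0066, adjusted p 0.725). Its quartile means from dim to bright were 4.57, 5.40, 4.80 and 3.48, so Q1 was the lowest. Q2 lay little above Q4 (difference 0.23, adjusted p 0.916 in limma), and the unadjusted intersection-union p was 0.657. It was at 1 FPKM or more in 75.1% of middle cells, against 62.1% of cells at the extremes. Of the 20 genes of the undifferentiated and progenitor list 17 were tested; 15 were above 0 (44.8% over all genes) and 2 below, with a median of 0.08. The list's median was 0.11, 0.16, 0.08 and 0.13 in the 4 preparations, and 6, 4, 8 and 7 of its 17 genes were below 0. Without preparation 2, 7 of 17 were below 0. In all 4 preparations alike, 1 of the 17 was higher (5.26% over all genes) and 0 were lower (7.90%). Of its members 1 was higher (2.00% over all genes) and 0 were lower (3.43%) at an unadjusted p under 0.05. Neurog3, the transcription factor that marks progenitors, was 0.24 ± 0.13, and the 3 dimmer quartiles stood near 0.65, 0.66 and 0.55 against 0.07 in Q1. Lin28a, an RNA-binding protein of progenitors, was 0.47 ± 0.32 and Sohlh1, a transcription factor of early differentiation, 0.48 ± 0.25; neither had an unadjusted p under 0.05.

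**Figure D4:**
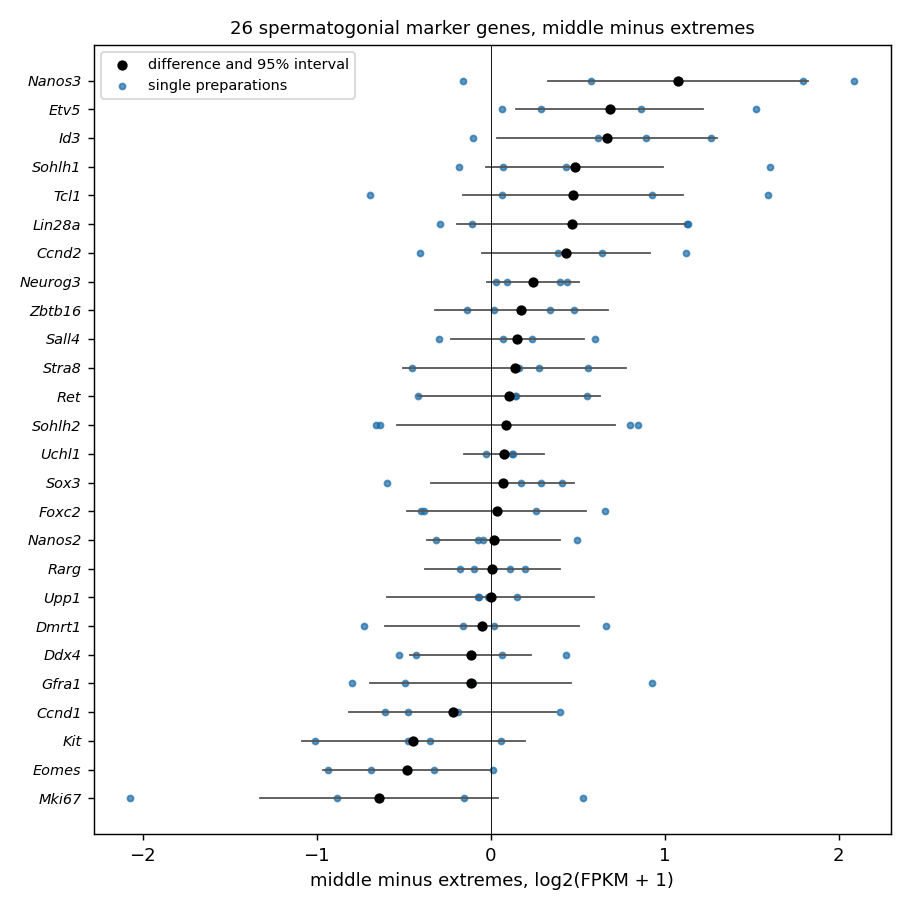
Middle minus extremes difference in log2(FPKM + 1) for 26 spermatogonial marker genes, with black points for the estimate, bars for its 95% interval and blue points for the 4 preparations. The intervals of Nanos3, Etv5 and Id3 lie above 0, and all others, among them Gfra1 and Upp1, include 0.

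Medians of the other germ cell lists moved with single preparations. The stem cell associated list had 8 of 15 tested genes above 0 (median 0.02, and −0.14 to 0.12 with 1 preparation left out), and the GDNF and FGF responsive list 8 of 14 (median 0.05, and −0.10 to 0.15). The differentiating spermatogonia list had 8 of 13 below 0 (55.2% over all genes), with a median of −0.09. The list's median was −0.24, 0.07, −0.16 and −0.24 in the 4 preparations and −0.29 over the preparations without the second. Of its members Dnmt3b, a de novo DNA methyltransferase, was −0.73 ± 0.28 and Ly6k, a surface protein of germ cells, −0.45 ± 0.18 (adjusted p 0.780 and 0.819). The retinoic acid pathway had 11 of 15 below 0 (55.2% over all genes), with a median of −0.09. The meiotic prophase list was divided, with 15 of 29 above 0, and its 3 genes with an unadjusted p under 0.05 were all lower (3.43% over all genes). These were Tex12 and Syce1, proteins of the synaptonemal complex central element, and Tex15, a germ cell factor required for meiotic recombination. Tex12 was at 6.59, 6.97, 7.12 and 7.25 in the middle, against 7.23, 7.96, 7.68 and 7.62 in the extremes, the lower in each preparation (−0.64 ± 0.20, adjusted p 0.725). Of the 11 tested DNA methylation and TET genes 8 were below 0 (median −0.13, and −0.20 to −0.05 with 1 preparation left out), with Mbd3, a subunit of the NuRD complex, at −0.82 ± 0.27.

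Genes of nuclear-encoded oxidative phosphorylation, the respiratory chain and ATP synthase, had 50 of 74 below 0 (55.2% over all genes) and a median of −0.09, and 6 were lower (3.43%) and 0 higher (2.00%) at an unadjusted p under 0.05. The list's median was −0.12, −0.00, −0.10 and −0.12 in the 4 preparations, and 15 genes were lower in each preparation (7.90% over all genes) and 2 higher in each (5.26%). Ndufa1, a subunit of complex I, was at 5.62, 6.21, 6.97 and 7.14 in the middle, against 7.20, 7.09, 6.62 and 7.84 in the extremes, lower in 3 of 4 preparations (−0.70 ± 0.23, adjusted p 0.725). Uqcrfs1, the Rieske protein of complex III, was −0.78 ± 0.33, and Atp5j, a subunit of ATP synthase, −0.31 ± 0.12. Glycolysis and lactate genes had 13 of 22 above 0 (median 0.07), where Ldha was higher and Aldoa, an aldolase, lower (−0.42 ± 0.20) at an unadjusted p under 0.05. Mitophagy and autophagy genes had 20 of 28 below 0 (median −0.12), but −0.28 in preparation 1 and between −0.05 and 0.04 in the others, and −0.04 over the preparations without the first.

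The large housekeeping lists had medians near 0. Cytosolic ribosomal protein genes had 41 of 80 above 0 (median 0.00), translation factors 18 of 44 (median −0.04), the proteasome 12 of 33 (median −0.06), and chaperones 14 of 33 (median −0.03). Psmd3, a regulatory subunit of the proteasome, was −0.80 ± 0.26. In the stress response list, 17 of 27 were below 0 (55.2% over all genes), and 2 were lower (3.43%) at an unadjusted p under 0.05. These were Herpud1 at −0.63 ± 0.20 and Sdf2l1 at −0.51 ± 0.18, both proteins of endoplasmic reticulum quality control. Signalling lists were small and divided. NOTCH had 8 of 12 above 0 (44.8% over all genes; median 0.07), with Hey1, a NOTCH target repressor, 0.45 ± 0.17 higher. BMP, TGF-beta and activin had 13 of 20 below 0 (55.2% over all genes; median −0.05). No member of any list passed adjustment. The lists were chosen with earlier results of these cells known, and nothing particular to a list is drawn from its median.

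**Figure D5:**
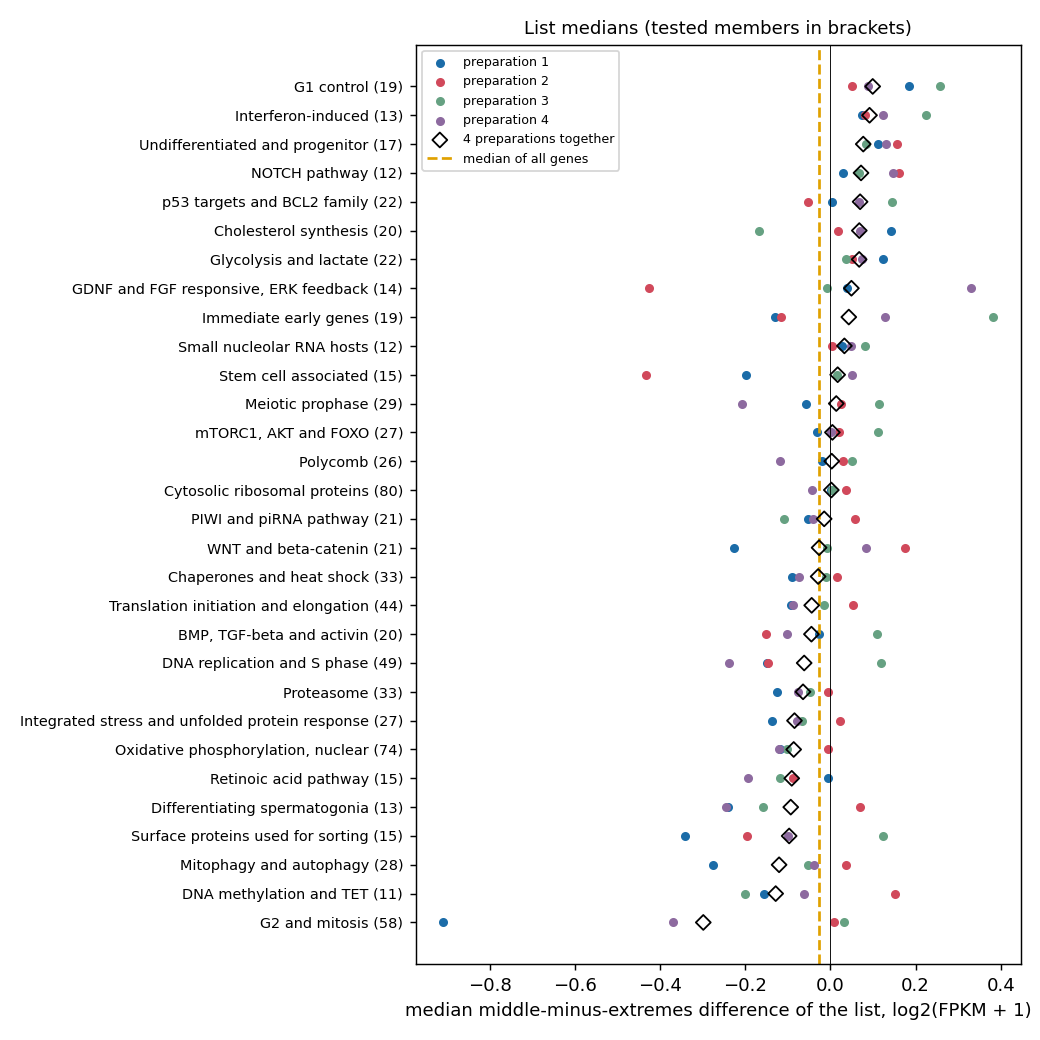
Median middle minus extremes difference of 30 gene lists in log2(FPKM + 1), as coloured points for the 4 preparations and open diamonds for all together, with the number of tested genes in brackets. Most diamonds lie within 0.13 of 0; G2 and mitosis is at −0.30, with its preparation 1 value at −0.91.

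The share of cells with transcripts of both a stem cell marker and a differentiation marker differed little between middle and extremes. The difference was 0.59 percentage points, with an SD of 6.7 over the preparations. Cells with both Gfra1 and Kit at 1 FPKM or more made up 14.3% ± 10.0 of middle cells and 13.7% ± 4.2 of cells at the extremes (SD over preparations). The share in the middle was 0% in preparation 1 and 17.1%, 16.8% and 23.2% in the others, against 8.5%, 12%, 17.2% and 17.0% at the extremes. Gfra1 alone was found in 43.6% ± 10.0 of middle cells, against 41.5% ± 11.5, and Kit alone in 13.8% ± 4.5, against 20.5% ± 12. Neither was at 1 FPKM in 28.4% ± 14.9 of middle cells, against 24.3% ± 7.8. Exact permutation within preparations gave p = 0.846 for both, 0.872 for Gfra1 alone, 0.532 for Kit alone and 0.664 for neither, and each was 0.872 after adjustment over the 4 classes. Counted over cells from dim to bright, both transcripts were present in 8 of 72, 13 of 71, 9 of 78 and 13 of 79 cells.

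Markers of other cell types gave values of their own beside these results. Of 12 macrophage and leukocyte markers 3 were tested, and their list's summed mean FPKM ran from 12.6 to 863 over the middle of the 4 preparations and from 21.2 to 331 over the extremes; 5 middle cells and 3 cells at the extremes matched this list. The 12 Sertoli cell markers summed to 193 to 237 in the middle, against 157 to 198 at the extremes, with Cldn11 and Fshr listed at 0 in every cell. The Leydig cell enzymes Cyp17a1 and Hsd3b1 and the erythroid genes Hba-a1, Hba-a2 and Slc4a1 were also listed at 0. The 11 pachytene spermatocyte markers summed to 58.8 to 101 in the middle, against 73.4 to 104 at the extremes, and the 12 spermatid markers to 82.2 to 109, against 79.9 to 115. Sums for peritubular myoid cells were 1.58 to 5.10 in the middle and 0.93 to 133 at the extremes, and for endothelial cells 15.2 to 32.7 in the middle and 14.6 to 24.5 at the extremes. Without the 15 cells that matched another type, Mrps18c was −0.84 with an adjusted p of 0.0528, and the G2 and mitosis median was −0.28 with 50 of 58 genes below 0.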

How the data were processed

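PolyA cDNA of 300 single cells was measured in 4 preparations. The authors deposited 1 table of FPKM values for 23354 gene names, made with TopHat and Cufflinks (FastQC and Picard are also named) on mm10, GRCm38, per the submitters' processing notes; the table's header names no unit, and FPKM is inferred from Cufflinks. Read depth is unknown: FPKM summed to 348305 to 682985 per cell, with 2934 to 7817 genes at 1 FPKM or more. No 2 columns were identical, 5602 names were at 0 everywhere, and 141 names matched no symbol (25 turned into dates). Id4 and mitochondrial genome genes are not analysed here.

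The number from 1 to 4 in the titles was read as the preparation. The mean of log2(FPKM + 1) over cells was taken per preparation and quartile (16 means) and fitted in limma 3.58.1 (R 4.3.3; trend and robust moderation; quartile plus preparation) with Benjamini-Hochberg adjustment at 0.05. Residuals of quartiles of the same preparation correlated at 0.0112 to 0.360 (median 0.129 over 24 pairs); the block rests on the shared preparation. Shares and per-cell totals were tested by exact permutation (Python 3.11.15). The limma p-values measure how differences between quartiles vary from preparation to preparation, with variances moderated over genes. Those of the permutation test measure the spread among the quartiles within preparations. The fits were tested on simulated data. Positions are from GENCODE on GRCm38, promoters from RefSeq.

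Genes were named by rule: 12 per direction by p among those of 1 sign in all preparations, 6 per direction by intersection-union p, 26 markers, and up to 3 per list by p. The comparison and lists were chosen with earlier results of these data known. The 15 alternatives cover the pseudocount, filters, block, centring, covariate, weights, moderation and each preparation left out.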

Additional observations from a re-analysis of the deposited data

Results flagged for a closer look

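Of 121 groups of 4 preparation values looked at, 1 had a value far from the others: the median difference of the oxidative phosphorylation genes in preparation 2, at −0.00478, stood apart from the medians of preparations 1, 3 and 4, at −0.12, −0.10 and −0.12. By chance about 1 in 20 such groups is marked in this way.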

How the results depend on the processing

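The count of genes past an adjusted p of 0.05 was 0 and became 1 with a pseudocount of 0.1 and with the stricter filter of 75 cells (Mrps18c in both), and 1 in the fit on 4 differences per preparation (Sdc4); in the other 12 alternatives it stayed 0, also with each preparation left out. With no replicate block the unadjusted counts were 93 higher and 155 lower, and 1 gene by the intersection-union test, against 208, 357 and 9. That test gave 4 genes with genes per cell as covariate and 3 on log2 of mean FPKM, 4 to 8 when preparations were left out, and could not be computed on the 4 differences; after adjustment it gave 0 wherever it was run. The cause was not tested. The class share differences kept their sign in every alternative for Kit alone and for neither transcript, and changed it for the other classes. For both transcripts it was −4.65 percentage points at 5 FPKM and −1.27 to 3.62 when preparations were left out; for Gfra1 alone it was −0.11 as the median of 4 differences and −4.88 to 7.5.

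Over 85 named genes and 15 alternatives, 1225 of 1261 values kept their direction and side of the threshold, 3 passed it, and 33 changed sign, in 11 genes near 0, all panel markers. With the pseudocount of 0.1 these were Gfra1 (0.0822), Nanos2 (−0.112) and Upp1 (0.0366). On log2 of mean FPKM they were Gfra1 (0.0373), Upp1 (0.278), Rarg (−0.194), Sohlh2 (−0.0753), Stra8 (−0.0264) and Dmrt1 (0.0579). Median centring gave Upp1 0.0278, the covariate Dmrt1 0.0790, weights Upp1 0.0348 and Dmrt1 0.00382, and leaving out cells that match another type (added after seeing the data) Sox3 −0.00430 and Upp1 0.0942. Leaving out each preparation gave −0.463 to 0.112 for Gfra1, −0.0431 to 0.281 for Ret, −0.172 to 0.180 for Foxc2, −0.143 to 0.126 for Nanos2, −0.297 to 0.0220 for Ddx4, −0.0432 to 0.291 for Sox3, −0.0508 to 0.0226 for Upp1, −0.0536 to 0.0717 for Rarg, −0.165 to 0.337 for Sohlh2, −0.00185 to 0.335 for Stra8 and −0.289 to 0.174 for Dmrt1. Of 450 list medians 25 moved by more than the spread between preparations.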
